A study of Bos taurus with 6 samples.

Results

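The DEAD and DEAH box RNA helicases were taken as all genes whose symbol in the deposited tables begins with DDX or DHX followed by a digit. Of 17325 genes, 52 met this pattern, 3 of which the rule leaves out by name, and the remaining 49 (34 with a DDX and 15 with a DHX symbol) are described here. The libraries were made from bovine oocytes, the metaphase II eggs of Bos taurus matured in vitro. 3 libraries are labelled siMTFP1, the knockdown of the mitochondrial fission gene MTFP1, and 3 are labelled NC, the negative control. The labels used here give neither breed, donor age, knockdown dose or time, nor the number of oocytes pooled in a library, and they leave unsaid whether a replicate is a culture or an animal of its own. The p-values therefore reflect the spread among these 6 samples, which may be technical. Values are FPKM, fragment counts divided by transcript length and by the library's mapped fragments, with 1 value per gene and library, so levels of different genes can be set side by side per length.

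These helicases use ATP to open RNA duplexes or to strip proteins from RNA, and are named for the amino acid letters of a conserved motif. Most are housekeeping enzymes of splicing, ribosome assembly, mRNA export and translation. A few are typical of germ cells, where VASA (DDX4) marks the granules that hold small RNAs and maternal messages. A fully grown oocyte transcribes little and lives on stored mRNA, so helicases that act on stored messages and on translation are of interest there.

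MTFP1 itself (NCBI gene ID 525071), the targeted gene, did not follow the labels. It was measured at 0.43, 0.58 and 1.15 FPKM in the libraries labelled siMTFP1 1, 2 and 3, and at 0.53, 0.55 and 0.05 in those labelled NC 1, 2 and 3. As log2(FPKM + 1), the mean difference was 0.32 (p = 0.4 in a two-sided exact permutation test, which cannot go below 0.1 with 3 against 3), and 0.14 without NC 3 or 0.15 without siMTFP1 3. MTFP1 averaged 0.548 FPKM over the 6 libraries, below the mean of 1 FPKM required for the limma test, and values this low are imprecise. The groups are therefore named by their labels, and so is each direction given. All 13 matched oocyte markers were above 0 in every library, and at an unadjusted p under 0.05 (limma) 1 was higher and 1 lower. Of all 9730 genes with a mean of at least 1 FPKM, 3.86% were higher and 2.66% lower at that p. The higher marker was DAZL (log2 difference 0.91, limma adjusted p = 0.698). The lower one was ZP2 (-0.54, limma unadjusted p = 0.000347, adjusted p = 0.447). The groups did not overlap for ZP2 (below) and NOBOX (above), against 11.0% of those genes. Of 23 cumulus and granulosa markers (the somatic cells around the egg), 16 reached a mean of 1 FPKM. Of these, 12 were higher by their means and 4 lower, with a median log2 difference of 0.24, while 54.2% of those 9730 genes were higher. INHA, SPARC and VIM were higher at an unadjusted p under 0.05, each with an adjusted p of 0.750 (limma) and overlapping groups. The share of the 9730 genes that were higher at that p was 3.86%. Of the 4 lower ones, TNFAIP6 differed most, with a log2 difference of -1.36 (limma unadjusted p = 0.0556, adjusted p = 0.766). The summed level of the 23 was 199.81, 1170.16 and 206.51 FPKM in the libraries labelled siMTFP1 1, 2 and 3 and 379.69, 162.08 and 297.71 in those labelled NC 1, 2 and 3, most of the siMTFP1 2 value being TIMP1 (955.49 FPKM). The granulosa receptor FSHR was listed at 0 in 5 of 6 libraries, and AMH and AMHR2 in 4 each. STAR, HAS2, KRT8 and TIMP1 were at 12.06 FPKM or more in every library, with TIMP1 ranging from 13.14 to 955.49. Of 6 blood and immune markers, the globin gene HBA lay between 24.08 and 57.87 FPKM in the libraries labelled siMTFP1 and between 45.07 and 74.09 in those labelled NC (log2 difference -0.83, limma unadjusted p = 0.0341, adjusted p = 0.750). The T-cell gene CD3E lay between 1.54 and 3.84 FPKM, and the leukocyte marker PTPRC was listed at 0 in 5 of 6 libraries. HBA, CD3E and PTPRC had lower means in the libraries labelled siMTFP1, while CD68, CD14 and TYROBP, all under 1 FPKM, had higher ones. CD68 averaged 0.403 FPKM in the libraries labelled siMTFP1 and 0.107 in those labelled NC. In a limma fit of all genes its unadjusted p was 0.0225 and its adjusted p 0.815. The part of these other cells in any helicase value was not tested, and in bulk RNA fewer cells and less RNA per cell cannot be told apart.

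The germline helicases were the most and among the least abundant of the 49 genes, called the family here. Related helicases whose symbols the rule does not match are outside it. Of these, EIF4A1 and EIF4A2 averaged 1205 and 307 FPKM over the 6 libraries, above every member, and EIF4A3 averaged 88.4. DDX25 was the highest of the 49 in every library, DDX43 had rank 3 by its mean and DDX4 rank 26, and DDX53 was listed at 0 in 5 of 6 libraries. These 4 genes made up 29.8%, 29.9% and 30.5% of the family's summed FPKM in the libraries labelled siMTFP1 1, 2 and 3, and 29.0%, 35.1% and 32.3% in those labelled NC 1, 2 and 3. The other 45 helicases had a median of 5.63 FPKM over their 6-library means. The median log2 level of the 4 germline genes lay 1.46 ± 0.248 above that of the other 45 in the libraries labelled siMTFP1 and 1.74 ± 0.189 above it in those labelled NC (SD, n = 3 each), values that overlap between the groups. With 4 germline genes that median is the midpoint of DDX43 and DDX4, and the levels of DDX25 and DDX53 do not enter it. DDX4 averaged 5.57 FPKM, near the median of the other 45, so the gap mostly reflects DDX43. With so few germline genes this gap is a description and was not tested.

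DDX25, known in the mouse testis as a gonadotropin-regulated helicase needed to complete sperm formation, was an abundant oocyte transcript (gene ID 508962). It reached 199.72, 182.11 and 131.94 FPKM in the libraries labelled siMTFP1 and 174.43, 214.51 and 139.49 in those labelled NC. The groups overlapped, and replicate 3 was the lowest library of each group. It averaged 171 ± 35.2 FPKM in the libraries labelled siMTFP1 and 176 ± 37.5 in those labelled NC (SD, n = 3 each), and its mean over all 6 lay above that of 95.7% of all 17325 genes. The log2 difference was -0.04, with a 95% interval of -0.51 to 0.43 (limma, Benjamini-Hochberg adjusted p = 0.986), and it turned positive without NC 2 (0.11) or siMTFP1 3 (0.14).

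DDX43, a cancer-testis antigen, had the lowest mean difference among the germline genes (gene ID 100337502). DDX43 was measured at 36.11, 45.25 and 68.74 FPKM in the libraries labelled siMTFP1 and 53.51, 55.02 and 101.68 in those labelled NC. The groups overlapped because siMTFP1 3 lay above NC 1 and NC 2, and replicate 3 was the highest library of each group. Its mean was 50.0 ± 16.8 FPKM in the libraries labelled siMTFP1 and 70.1 ± 27.4 in those labelled NC (SD, n = 3 each), a log2 difference of -0.46 with a 95% interval of -1.14 to 0.22 (limma adjusted p = 0.864). It moved to -0.17 without NC 3, -0.26 without siMTFP1 1 and -0.71 without siMTFP1 3.

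Replicate 3 combined the lowest DDX25 with the highest DDX43 of each group. Within a library DDX25 exceeded DDX43 by 5.53, 4.02 and 1.92 times in those labelled siMTFP1 1, 2 and 3 and by 3.26, 3.90 and 1.37 times in those labelled NC 1, 2 and 3. This ratio was smallest in replicate 3 of both groups, and the groups overlapped. Replicate numbers are not stated to mark a shared culture or day.

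DDX4, the VASA protein of germ granules, was at the level of the housekeeping members (gene ID 493725). DDX4 had 7.12, 5.10 and 5.21 FPKM in the libraries labelled siMTFP1 and 6.99, 5.37 and 3.65 in those labelled NC. The groups overlapped, with replicate 1 the highest in each. The log2 difference was 0.13 with a 95% interval of -0.39 to 0.65 (limma adjusted p = 0.954), and it turned to -0.08 without NC 3 and -0.01 without siMTFP1 1. DDX25 exceeded DDX4 between 25.0 and 39.9 times within each library. DDX53, a cancer-testis antigen, was listed at 0.02 FPKM in siMTFP1 1 and at 0 in the other 5 libraries.

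**Figure D1:**
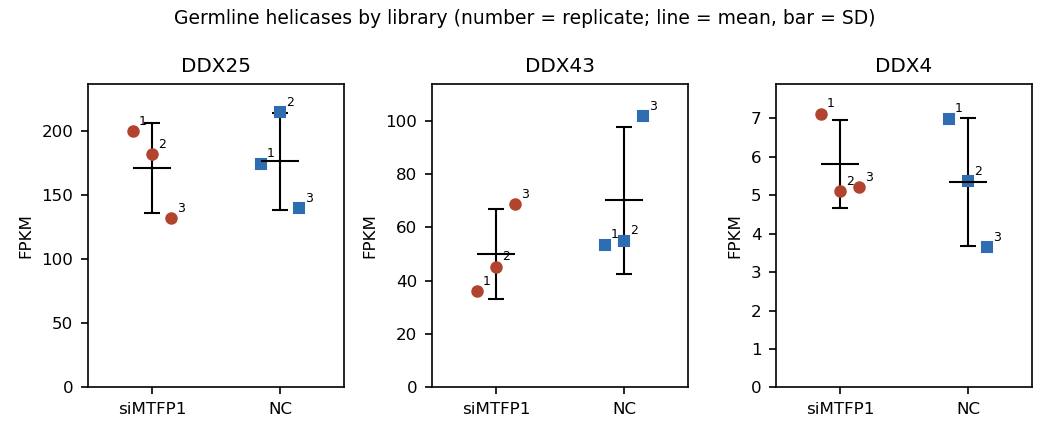
FPKM (vertical axes, starting at 0) of DDX25, DDX43 and DDX4 in the 3 libraries labelled siMTFP1 (circles) and the 3 labelled NC (squares), numbered by replicate, with the mean and SD of each group. All 3 genes overlap between the groups, and replicate 3 is the lowest library of each group for DDX25 and the highest for DDX43.

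Helicases of translation and mRNA storage were led by DDX3X, which helps ribosomes pass structured mRNA leaders and was second in the family in all 6 libraries. DDX3X had 95.01, 101.43 and 83.69 FPKM in the libraries labelled siMTFP1 and 90.70, 98.15 and 102.34 in those labelled NC. Its highest library exceeded its lowest by only 1.22 times, and the groups overlapped, with a log2 difference of -0.06 (95% interval -0.36 to 0.24, limma adjusted p = 0.965). DHX36, which unwinds G-quadruplex RNA, was as steady, with 34.24, 30.69 and 27.01 FPKM in the libraries labelled siMTFP1 and 30.95, 31.97 and 30.40 in those labelled NC. DDX6, a repressor of stored mRNA in oocytes of frog and mouse, was lower than either, at 6.36, 6.23 and 5.18 FPKM in the libraries labelled siMTFP1 and 6.83, 7.18 and 4.69 in those labelled NC. DHX29, a scanning factor of the small ribosomal subunit, averaged 6.00 ± 0.653 FPKM in the libraries labelled siMTFP1 and 5.27 ± 0.677 in those labelled NC (SD, n = 3 each), and its groups overlapped. DHX33 lay under 0.5 FPKM in every library and was below the filter for testing. For the 4 tested members in this role, the mean level in the libraries labelled siMTFP1 was higher in 1 and lower in 3, with a median log2 difference of -0.04, against 0.02 over all 9730 tested genes, and 0 passed at an adjusted p of 0.05.

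**Figure D2:**
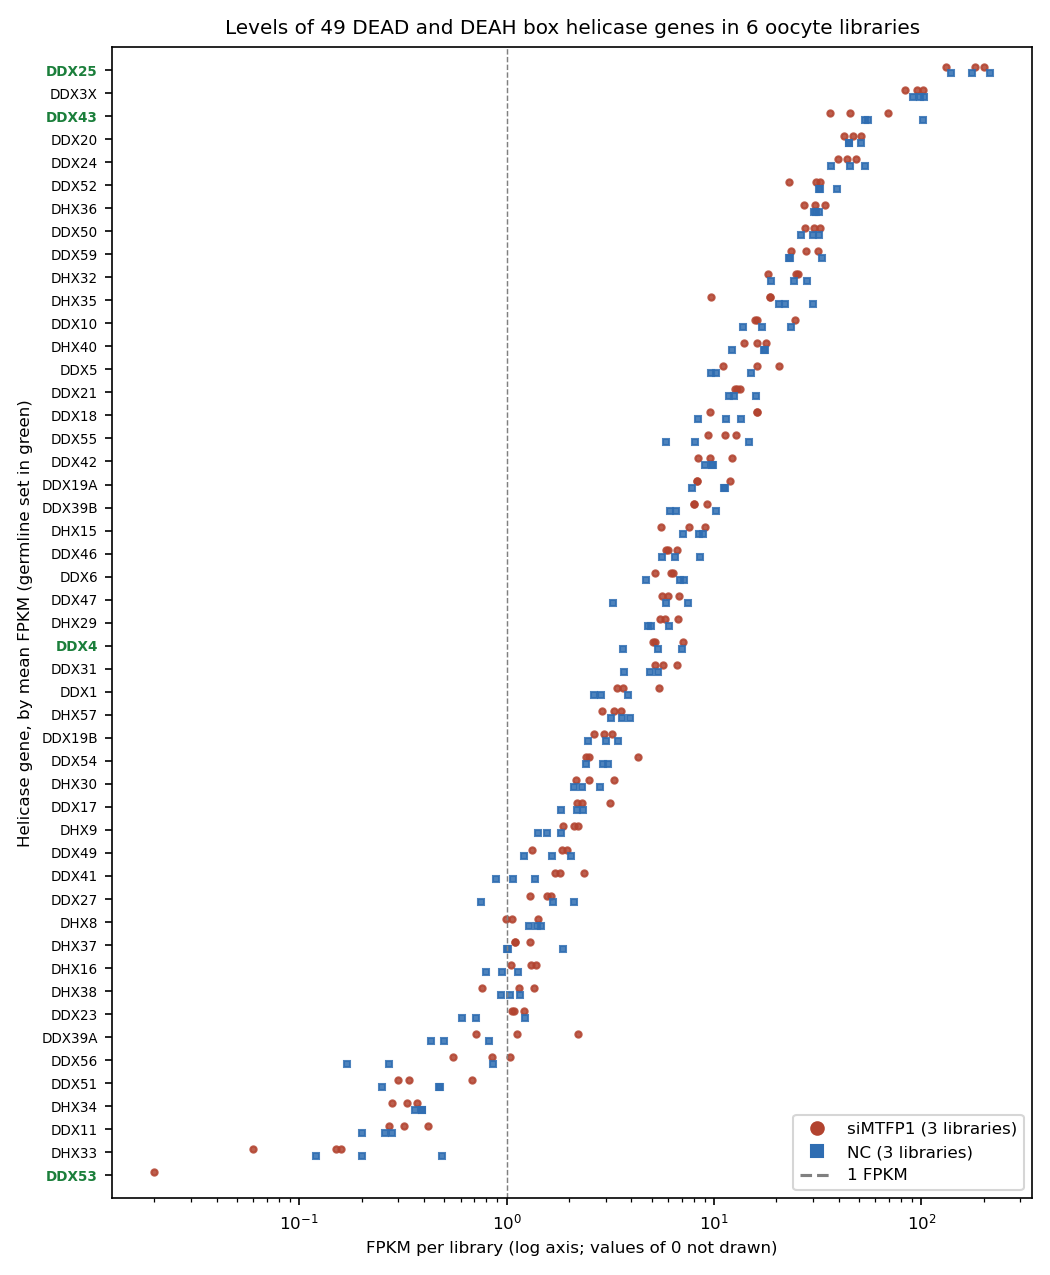
FPKM per library (horizontal log axis) of the 49 helicase genes, ordered by mean, with circles for the libraries labelled siMTFP1, squares for those labelled NC and the germline genes in green. Values of 0 are not drawn. The germline genes stand at both ends, DDX25 first and DDX53 last, and the groups overlap for most genes.

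No helicase passed the test between the groups. Genes with a mean of at least 1 FPKM over the 6 libraries were tested with limma on log2(FPKM + 1), with Benjamini-Hochberg adjustment over all 9730 such genes. 41 of the 49 helicases were tested, and 0 had an adjusted p under 0.05, against 0.0% of all tested genes. At an unadjusted p under 0.05 there were 2 members. DDX41 was higher, where the share of all tested genes that were higher was 3.86%. DHX35 was lower, where that share was 2.66%. In both directions together that is 4.88% of the tested helicases, against 6.53% of all tested genes. The groups did not overlap for 3 of the 41 (DDX41 and DHX9 above, DHX35 below), 7.32% of them, against 11.0% of all tested genes (5.97% above and 5.05% below). Only DHX35, 2.44% of the 41, differed by 0.5 or more on the log2(FPKM + 1) scale in either direction, against 6.71% of all tested genes. DDX41, at 0.49 on that scale, moved to 0.77 with a pseudocount of 0.1 and to 0.19 with one of 5. A higher mean in the libraries labelled siMTFP1 was seen in 23 members, 56.1%, against 54.2% of all tested genes. The median log2 difference of the 41 was 0.03, against 0.02 over all tested genes. The 95% interval lay within -1 to 1 for 39 of the 41 (DDX43 and DHX35 being the exceptions) and within -0.5 to 0.5 for 14, before adjustment. Without siMTFP1 3 there were 4 higher and 2 lower members at an unadjusted p under 0.05. Without siMTFP1 2 or NC 2 there were 0 higher, and without siMTFP1 2, NC 1 or NC 2 there were 0 lower. Without NC 1 the 1 higher member was DDX55 in place of DDX41. The shares of all genes at that p in these smaller fits are not given here, so the counts show only how unstable the p-values are.

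8 helicases lay below the filter: DDX23, DDX39A, DDX56, DDX51, DHX34, DDX11, DHX33 and DDX53. In a fit without the filter their log2 differences ran from -0.17 for DHX33 to 0.52 for DDX39A, and the lowest adjusted p was 0.819 (limma). DHX34, a factor of nonsense-mediated decay, and DDX11, a DNA helicase of chromatid cohesion, stayed under 0.5 FPKM in every library.

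Among the spliceosome and small nuclear RNA helicases, DDX41 and DHX35 stood furthest apart between the groups, in opposite directions. DDX41 (gene ID 505276), found in the catalytic spliceosome and also studied as a sensor of cytosolic DNA, had 1.81, 2.35 and 1.72 FPKM in the libraries labelled siMTFP1 and 0.89, 1.07 and 1.37 in those labelled NC. Every library labelled siMTFP1 lay above every library labelled NC. Mean DDX41 was 1.96 ± 0.341 FPKM in the libraries labelled siMTFP1 and 1.11 ± 0.242 in those labelled NC (SD, n = 3 each), a log2 difference of 0.49 (SE 0.17, limma unadjusted p = 0.0208, adjusted p = 0.750). Its highest value was in siMTFP1 2, the library with the highest summed cumulus markers (1170.16 FPKM, of which TIMP1 gave 955.49). NC 1 had the next highest sum (379.69 FPKM) and the lowest DDX41 value. The part of these cells in DDX41 was not tested. Without siMTFP1 2 the log2 difference was 0.40. The unadjusted p was 0.0799 without siMTFP1 2, 0.0712 without NC 1 and 0.0522 without NC 2 (limma).

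DHX35 (gene ID 513148), a DEAH helicase found in active spliceosomes, had 18.71, 9.64 and 18.58 FPKM in the libraries labelled siMTFP1 and 30.17, 21.92 and 20.57 in those labelled NC. Every library labelled siMTFP1 lay below every library labelled NC, the nearest pair being siMTFP1 1 and NC 3. Mean DHX35 was 15.6 ± 5.20 FPKM in the libraries labelled siMTFP1 and 24.2 ± 5.20 in those labelled NC (SD, n = 3 each), a log2 difference of -0.64 (SE 0.26, limma unadjusted p = 0.0406, adjusted p = 0.750). The lowest value was in siMTFP1 2, and the difference was -0.34 without that library (limma unadjusted p = 0.146, adjusted p = 1.00). The unadjusted p was 0.136 without NC 1 and 0.0585 without NC 2.

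The remaining spliceosome members lay closer together. DDX20, the helicase of the SMN complex that loads Sm proteins on small nuclear RNA, was the most abundant of them, at 46.72, 51.30 and 42.25 FPKM in the libraries labelled siMTFP1 and 44.91, 44.68 and 50.96 in those labelled NC. Its log2 difference was -0.0046, with a 95% interval of -0.32 to 0.31. DDX5, a cofactor of transcription and microRNA processing, had 16.17, 20.49 and 11.02 FPKM in the libraries labelled siMTFP1 and 15.04, 10.20 and 9.69 in those labelled NC, which overlapped (log2 difference 0.40, limma adjusted p = 0.850). DDX5 was also highest in siMTFP1 2. The splicing ATPases DHX16 (higher by its mean), DHX8, DHX15 and DDX46 (lower) were among the 6 members with the smallest p-values in their direction, with log2 differences of 0.20, -0.15, -0.14 and -0.12 and adjusted p from 0.892 to 0.945 (limma). For the 12 tested members in this role, the mean level in the libraries labelled siMTFP1 was higher in 7 and lower in 5. The splicing ATPases covered a range of levels, DHX15 and DDX46 averaging 7.75 and 6.53 FPKM over the 6 libraries and DHX8, DHX16, DHX38 and DDX23 averaging 1.27, 1.10, 1.07 and 0.987.

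**Figure D3:**
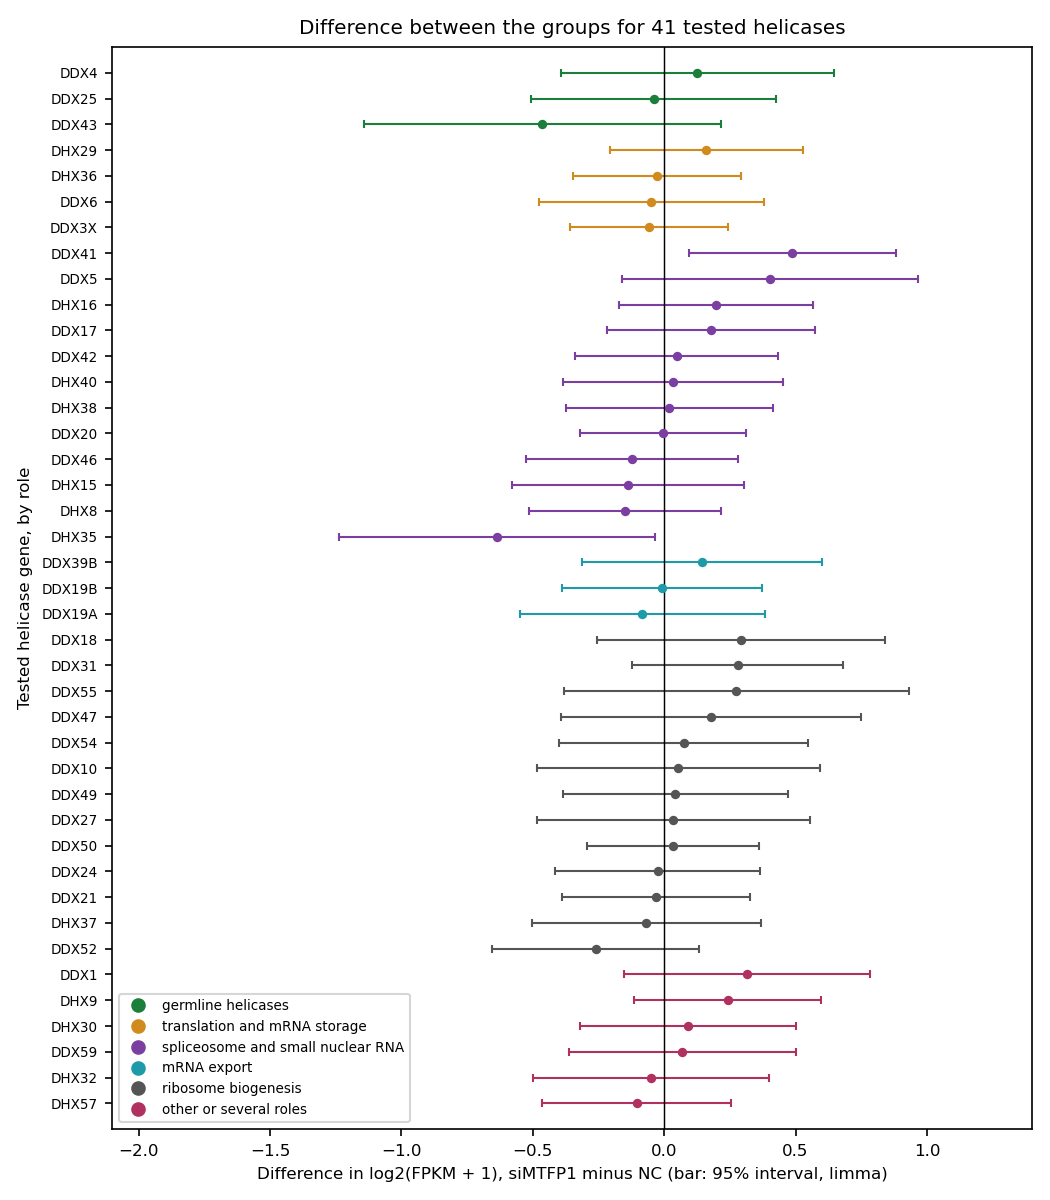
Difference in log2(FPKM + 1), siMTFP1 minus NC (horizontal axis), with its 95% interval from limma, for the 41 tested helicases grouped by role. Only the intervals of DDX41 (above 0) and DHX35 (below 0) exclude 0 before adjustment, and those of the other 39 include it.

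Ribosome biogenesis was the largest role, with 15 members of which 13 were tested. Their summed level was 201.03, 183.54 and 156.2 FPKM in the libraries labelled siMTFP1 and 215.43, 157.51 and 165.14 in those labelled NC, which overlapped. DDX24 led them, with 48.44, 43.69 and 39.41 FPKM in the libraries labelled siMTFP1 and 53.43, 36.48 and 45.09 in those labelled NC. DDX52, a factor of small subunit assembly, had the smallest p among lower members of this role, at 30.88, 32.59 and 22.99 FPKM in the libraries labelled siMTFP1 and 39.04, 31.96 and 32.47 in those labelled NC (log2 difference -0.26, limma adjusted p = 0.867). NC 2 and NC 3 fell inside the range of the libraries labelled siMTFP1. DDX31, a nucleolar helicase, had the smallest p among the higher ones, at 6.60, 5.68 and 5.22 FPKM in the libraries labelled siMTFP1 and 5.35, 3.70 and 4.92 in those labelled NC (log2 difference 0.28, limma adjusted p = 0.859). Among the 13, the mean level in the libraries labelled siMTFP1 was higher in 9 and lower in 4, with a median log2 difference of 0.04. Apart from DDX52, they ran from -0.07 for DHX37 to 0.29 for DDX18, and each overlapped between the groups. DDX56 and DDX51 averaged 0.623 and 0.420 FPKM over the 6 libraries and were below the filter.

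Related helicases kept their own order in every library. The nucleolar neighbours DDX50 and DDX21, which lie next to each other with no protein-coding gene between them in the RefSeq gene table, gave DDX50 to DDX21 ratios of 2.43, 2.36 and 2.17 in the libraries labelled siMTFP1 and 2.02, 2.53 and 2.11 in those labelled NC. The mRNA export factors DDX19A and DDX19B, separated by 1 protein-coding gene in that table, gave DDX19A to DDX19B ratios of 3.70, 3.12 and 2.81 in the libraries labelled siMTFP1 and 3.28, 4.52 and 2.59 in those labelled NC. DDX5 exceeded its relative DDX17 by 5.15, 8.91 and 5.03 times in the libraries labelled siMTFP1 and by 6.90, 5.57 and 4.14 times in those labelled NC. In each of these 3 pairs the groups overlapped.

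DDX39A, a proliferation-linked relative of the mRNA export helicase DDX39B, was the exception among the pairs by their ratio, although each gene alone overlapped between the groups. DDX39A had 1.12, 2.20 and 0.71 FPKM in the libraries labelled siMTFP1 and 0.82, 0.50 and 0.43 in those labelled NC, while DDX39B had 8.01, 9.21 and 7.98 in the libraries labelled siMTFP1 and 10.25, 6.59 and 6.15 in those labelled NC. DDX39B exceeded DDX39A by 7.15, 4.19 and 11.2 times in the libraries labelled siMTFP1 and by 12.5, 13.2 and 14.3 times in those labelled NC, so the groups did not overlap in this ratio. The exact two-sided permutation test of the log2 ratio gave p = 0.1, the smallest possible, and 0.4 after Benjamini-Hochberg adjustment over the 4 pairs, which were chosen after the values were seen. DDX39A averaged 0.963 FPKM over the 6 libraries and was not tested with the filter, and without it limma gave a log2 difference of 0.52 (adjusted p = 0.819). Its highest value was in siMTFP1 2, where the summed cumulus markers were highest, and their part in it was not tested. How reads shared by such close relatives were divided is not known here, which makes these ratios uncertain.

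**Figure D4:**
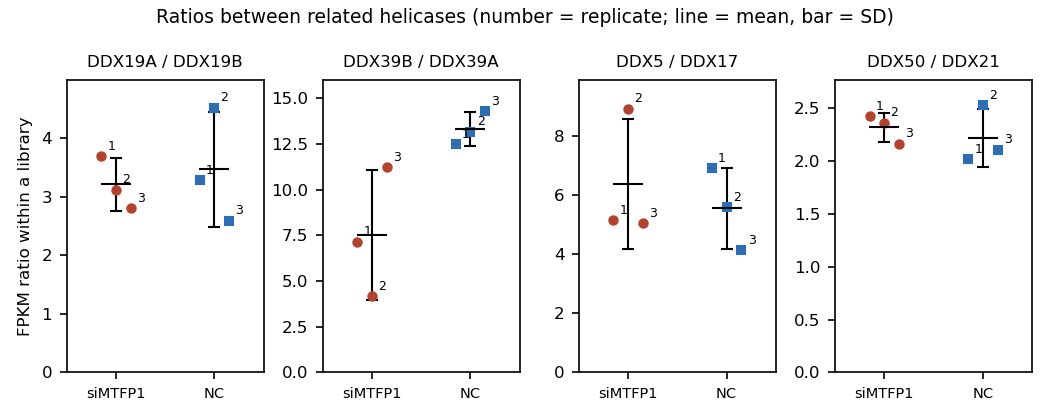
Ratio of FPKM within each library (vertical axes, starting at 0) for 4 pairs of related helicases, in libraries labelled siMTFP1 (circles) and NC (squares), numbered by replicate, with the group mean and SD. The groups overlap for 3 pairs, while for DDX39B to DDX39A the libraries labelled siMTFP1 lie between 4.19 and 11.2 and those labelled NC between 12.5 and 14.3.

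Members with other or several roles included DHX9 and DDX1, both among the 6 higher members with the smallest p. DHX9, an RNA helicase that resolves long duplex RNA, had 1.88, 2.21 and 2.11 FPKM in the libraries labelled siMTFP1 and 1.41, 1.56 and 1.82 in those labelled NC. The groups did not overlap, siMTFP1 1 and NC 3 being nearest to each other, and the log2 difference was 0.24 (95% interval -0.12 to 0.60, limma adjusted p = 0.864). DDX1, a partner of the tRNA ligase, had 3.64, 5.44 and 3.40 FPKM in the libraries labelled siMTFP1 and 3.87, 2.86 and 2.63 in those labelled NC, which overlapped (log2 difference 0.32, limma adjusted p = 0.866). DDX1 was highest in siMTFP1 2, which was the highest library for 8 of the 41 tested members (19.5%), against 15.6% of all tested genes. DDX59 and DHX32 were the most abundant of this set, at 27.0 and 23.2 FPKM over the 6 libraries. DHX30, a helicase of mitochondrial RNA granules averaged 2.66 ± 0.587 FPKM in the libraries labelled siMTFP1 and 2.42 ± 0.368 in those labelled NC (SD, n = 3 each), with a log2 difference of 0.09 (95% interval -0.32 to 0.50).

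Differences between libraries of the same group were as large as those between the groups. The family's summed level was 814, 778 and 675 FPKM in the libraries labelled siMTFP1 1, 2 and 3 and 811, 784 and 757 in those labelled NC 1, 2 and 3. siMTFP1 3 was the highest library for 1 of the 41 tested members (2.44%), against 15.5% of all tested genes, although its FPKM over all genes summed to the largest value of the 6. siMTFP1 1 was the highest for 12 members (29.3%, against 22.0% of all tested genes) and NC 1 for 13 (31.7%, against 21.2%). NC 3 was the lowest for 15 (36.6%, against 28.7%) and NC 2 for 10 (24.4%, against 15.6%). The median ratio of the highest to the lowest library was 1.63 for the tested members and 1.63 for all tested genes above 0 in every library. The order of the members was nonetheless stable, with Spearman's rho across the 41 genes between 0.971 and 0.986 for the 9 pairs of libraries from different groups and between 0.973 and 0.988 for the 6 pairs within a group, as a description over genes, which are not independent.

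**Figure D5:**
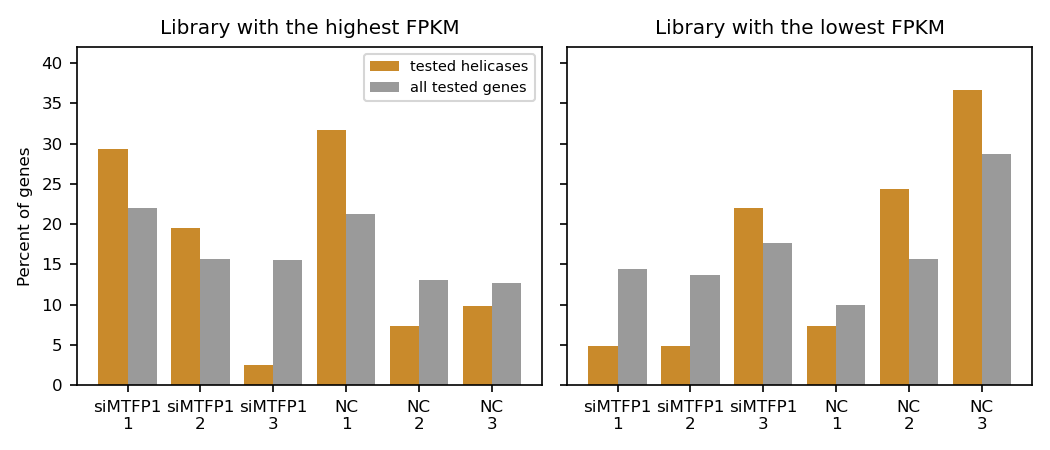
Percent of the 41 tested helicases and of all 9730 tested genes (vertical axes) whose highest FPKM (left) or lowest FPKM (right) fell in each library. The libraries siMTFP1 1 and NC 1 hold most of the highest helicase values, while siMTFP1 3 holds 2.44% of them, and NC 3 holds the most lowest values.

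Of the tested genes that work with or resemble these helicases, 0 passed an adjusted p of 0.05 (limma) and 0 an unadjusted p of 0.05, against 6.53% of all tested genes at that unadjusted p. Another 10 genes of these lists lay below the filter. In the fit without it, 3 of the 10 were higher at an unadjusted p under 0.05, against 3.66% of all 17325 genes, and 0 passed after adjustment (limma). SUGP1, a G-patch protein of the spliceosome, had a log2 difference of 0.39 (limma unadjusted p = 0.00717, adjusted p = 0.777). SNRNP200, the Brr2 helicase of the spliceosome, had 0.23 (limma unadjusted p = 0.0479, adjusted p = 0.819). LOC100139548, placed among the related helicases only by a RefSeq symbol or synonym of its gene ID, had 0.18 (limma unadjusted p = 0.0252, adjusted p = 0.815). In each of these 3 genes every library labelled siMTFP1 lay above every library labelled NC, and all values were under 1 FPKM. That was so for 5.97% of the 9730 tested genes, and the share among genes below the filter is not given here. Because the 3 were picked by their p-values, the separation adds nothing to them. For 12 tested related helicases with other symbols, the mean level in the libraries labelled siMTFP1 was higher in 7 and lower in 5. Those with the smallest p-values were EIF4A2, an RNA helicase of translation initiation, at 281 ± 21.6 FPKM in the libraries labelled siMTFP1 and 333 ± 55.0 in those labelled NC (SD, n = 3 each), and TDRD9, a germline helicase of the piRNA pathway, at 2.43 ± 0.156 FPKM in the libraries labelled siMTFP1 and 1.78 ± 0.800 in those labelled NC. Of 14 tested cofactors, mostly G-patch proteins that activate DEAH helicases, 5 were higher and 9 lower by their means, with GPATCH4 at a log2 difference of -0.36 and PRPF18 at -0.17. Of 29 tested partners of DDX6, VASA, DDX19 and eIF4A, 19 were higher and 10 lower. The translational regulator CPEB1 was the first of these, at 576 ± 117 FPKM in the libraries labelled siMTFP1 and 447 ± 58.9 in those labelled NC (log2 difference 0.35, limma adjusted p = 0.778). The oocyte mRNA storage proteins ZAR1 and LSM14B each had a log2 difference of 0.21, with overlapping groups.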

How the data were processed

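Per the labels' protocols, oocyte RNA was extracted with TRIzol and turned into mRNA libraries with a BGI kit. Per the file headers, the deposited values are FPKM, given with 2 decimals. Tools in the submitters' processing notes are DESeq2 1.4.5, RSEM 1.3.1, HISAT2 2.2.1 and Bowtie2 2.3.4.3, with build ARS-UCD1.2 and no roles stated. Strand use and the division of shared reads are not given in the sources used here. Depth is unknown, because FPKM holds no read total. The commonest log2 ratio of values between 0.05 and 0.5 FPKM lay within 0.1 of 0 in 15 of 15 library pairs.

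Values were compared as log2(FPKM + 1) with limma 3.58.1 in R 4.3.3 (eBayes with trend, two-sided, group as the only term) over all genes with a mean of at least 1 FPKM, which understates changes of low genes. The test was first run on simulated data, with changes larger than that of any helicase here. Its power at the differences seen was not examined. All 49 members matched the RefSeq gene table of ARS-UCD2.0 by gene ID, used for names and neighbours only. No sequences were used here, so the part of the naming rule that needs protein identity was not applied. Named members were the germline genes, the 6 most abundant, the 6 with the smallest p per direction, and others by role, level or pair. Members and lists were chosen with earlier results of these data known. Replicate numbers are shared between the groups with no stated meaning and were not used as a block in the main test. Plots used matplotlib 3.10.9 and tables pandas 2.3.3, in Python 3.11.15.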

Additional observations from a re-analysis of the deposited data

How the results depend on the processing

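Of 17 alternatives fitted, 0 called a helicase at an adjusted p of 0.05. Over all genes the count of 0 became 2 with a filter of 5 FPKM and 2 after scaling all libraries to equal sums, and ranged from 0 to 2 when 1 library was left out. The members at an unadjusted p under 0.05 were 0 higher with a filter of 5 FPKM, which removes DDX41, and 3 higher with array weights (DDX41, DDX1 and DDX5), with a range of 0 to 4 when 1 library was left out. The lower ones were 0 with no filter and 2 with the replicate number as a block (DHX35 and DDX43), with a range of 0 to 2 when 1 library was left out. The shares of all genes at that p in these alternatives are not given here, so the counts are no result about the helicases. Whether the numbers pair the libraries is not known. Deviations from the group means correlated at 0.03, -0.16 and 0.07 for equal numbers over all tested genes. The highest values there were between unequal numbers, 0.23 for siMTFP1 2 with NC 1 and 0.19 for siMTFP1 3 with NC 2. Over the helicases the values for equal numbers were 0.27, 0.07 and 0.37, and each library correlated best with its own number. These correlations are not independent of each other and do not settle whether the numbers pair the libraries. The median log2 difference of the members stayed between -0.04 and 0.10 over all settings, within the spread between libraries. That of MTFP1 was 0.96 with a pseudocount of 0.1, 0.09 with one of 5, 0.14 to 0.44 when 1 library was left out and 0.32 under the block. The germline gap in log2 level, 1.60 over the 6 libraries, was 1.30 with a pseudocount of 5, and 1.53 to 1.66 when 1 library was left out.

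For 17 named members, 270 of 284 results kept their direction, and none of the 284 had an adjusted p under 0.05 (limma). The unadjusted p was less stable. It was under 0.05 in 13 of 16 alternatives for DDX41 and 13 of 17 for DHX35 (limma). It was also under 0.05 in 2 for DDX43, 2 for DDX5 and 1 for DDX1, which were above it in the main fit. The 14 results that did not keep their direction changed sign around 0. Array weights turned DDX3X to 0.0018 and DDX20 to 0.067, and equal sums turned DDX20 to 0.0034. The rest turned when 1 library was left out. The log2 differences then ranged from -0.196 to 0.136 for DDX25, from -0.0798 to 0.311 for DDX4 and from -0.119 to 0.0179 for DDX3X. They ranged from -0.0723 to 0.0648 for DDX20, from -0.164 to 0.105 for DDX24, from -0.277 to 0.0296 for DHX15 and from -0.236 to 0.0250 for DDX46. The limma adjusted p was lowest with array weights for both DDX41 (0.289) and DHX35 (0.305). The cause of these shifts was not tested. With 3 libraries a group and no depths given, differences below about the size of the intervals cannot be resolved.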
